A study of Mus musculus with 12 samples.

Results

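The genes of the CSF1 and CSF2 receptor axis were followed in fibroblast cultures at an early stage of reprogramming, with and without extra vitamin B12. The axis was taken as 6 genes, the ligands Csf1 and Il34, their receptor Csf1r, and the receptor chains Csf2ra, Csf2rb and Csf2rb2. They were selected by matching the gene identifiers of the count table to these symbols, which gave 6 of the 55573 genes counted. Mouse embryonic fibroblasts (MEFs) were prepared from 3 embryos of the C57BL/6 strain at day 13.5, named clones 1, 2 and 3, and all carried a cassette from which doxycycline switches on Oct4, Sox2, Klf4 and Myc (OSKM). The groups were MEF (no doxycycline, no added B12), MEF+B12 (2 µM B12), OSKM (doxycycline at 1 µg/ml) and OSKM+B12 (both agents), each with 1 RNA-seq library from each clone at 72 h, 12 libraries in all. Every culture, controls included, was kept in stem cell medium with LIF, and only the OSKM groups received doxycycline, so the drug and the factors cannot be told apart. A clone here is the culture of 1 embryo, so the 4 libraries of a clone are not independent of each other. The study asked how B12 changes transcription during early reprogramming.

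CSF1 and interleukin-34 bind the same receptor tyrosine kinase, CSF1R, which monocytes, macrophages, microglia and osteoclasts need for survival and proliferation. Fibroblasts are a known source of CSF1, and transcription factors such as PU.1 drive Csf1r in the macrophage lineage. CSF2, also called GM-CSF, binds a specific alpha chain, CSF2RA, which pairs with a common beta chain that also serves the interleukin-3 and interleukin-5 receptors. Mice carry a second beta chain gene, Csf2rb2, whose product serves interleukin-3 alone.

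The level of Csf1 and of each receptor could be read in every library. Library totals ranged from 56971244 to 79236795 counts, and all 6 genes passed the filter on low counts, which kept 19174 genes. As a check of the labels, Pou5f1, the gene of Oct4, ranged from 18.5 to 20.7 CPM after induction in clones 1 and 2 but only from 2.33 to 2.86 CPM in clone 3. CPM is the usual scaling of a count to the library total after normalisation. It was at most 0.468 CPM in the 6 uninduced libraries. The titles of the clone 1 libraries name a later year than those of clones 2 and 3. Ddx3y, a gene of the Y chromosome, reached at least 80.2 CPM in all libraries of clone 1 and was not counted once in clones 2 and 3, so year, sex and embryo cannot be told apart for clone 1. The OSKM library of clone 1 stood apart from its clone over 1519 pseudogenes, with a log2 spread of 0.510 (SD) against 0.103 to 0.226 in the other 11 libraries. The main calls of members and lists, and fitted values that rest on it, were recomputed without it, while group means and pair differences include it. Fits under other settings, such as DESeq2, no filter, the beta chain genes counted together or clone 2 or 3 left out, also include it.

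**Figure D1:**
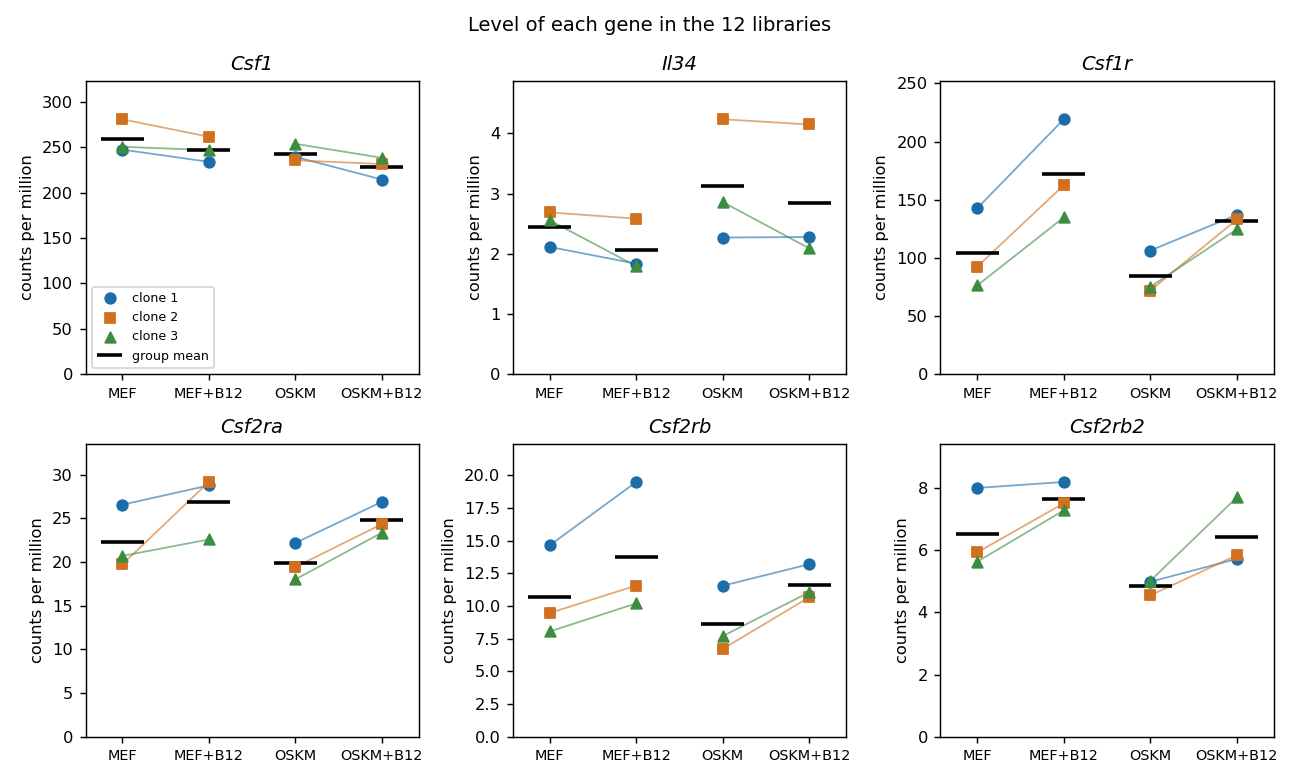
CPM of the 6 genes (one panel each, axes from 0) in each of the 4 groups. Points are libraries, coloured and shaped by clone, thin lines join the libraries of a clone without and with B12, and bars are group means of 3 libraries. The Csf1r, Csf2ra, Csf2rb and Csf2rb2 lines all slope upward with B12, while those of Csf1 all slope slightly downward.

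Csf1 was the most abundant member when levels were set per length. RPKM, the CPM divided by the summed exon length in kilobases, averaged 46.4 ± 3.17 for Csf1 over the 12 libraries (mean ± SD, n = 12, groups and clones pooled). Csf1r followed with 21.3 ± 7.37 RPKM and Csf2ra with 8.17 ± 1.30 RPKM. Csf2rb had 1.54 ± 0.475, Csf2rb2 1.34 ± 0.273 and Il34 1.34 ± 0.410 RPKM. The first 3 places held in each of the 12 libraries. The RPKM of Csf1 was 1.17 to 3.70 times that of Csf1r, that of Csf1r was 1.83 to 3.79 times that of Csf2ra, and that of Csf2ra was 3.74 to 7.32 times that of Csf2rb. The order of the 3 lowest genes was not the same in every library, and the ratio of Csf2rb to Csf2rb2 ran from 0.913 to 1.55. Csf2rb had 2.68 and Il34 0.937 RPKM in MEF+B12 of clone 1, against 0.924 and 2.16 in OSKM of clone 2.

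**Figure D2:**
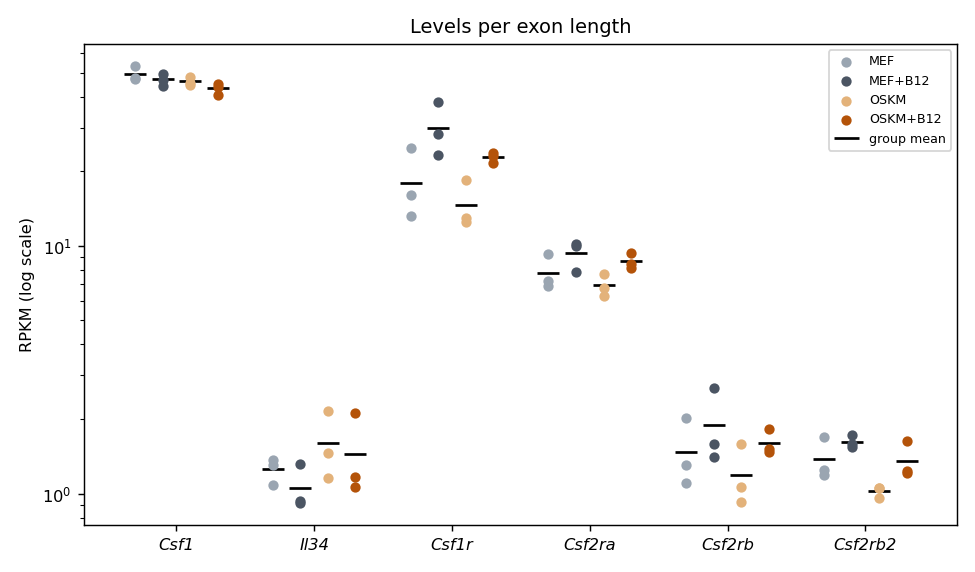
RPKM of the 6 genes on a logarithmic axis. Each point is a library, coloured by group, and bars are group means of 3 libraries. Csf1 lies above Csf1r, Csf1r above Csf2ra, and Csf2ra above the other 3 genes in every group.

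Csf1 (ENSMUSG00000014599), the growth factor of the macrophage lineage, lies at GRCm38 chr3:107741048-107760469 on the minus strand. It had 248, 281 and 251 CPM in MEF for clones 1, 2 and 3, and 234, 262 and 247 CPM in MEF+B12. In OSKM it had 240, 236 and 254 CPM, and 215, 232 and 239 CPM in OSKM+B12. The groups overlapped, although the B12 library was the lower one in 6 of 6 pairs of libraries of the same clone and state. The difference was small, a log2 fold change of -0.08 ± 0.04 (SE here and below) averaged over both states, and did not pass the threshold of 0.05 (adjusted p = 0.365), nor without the OSKM library of clone 1 (-0.07, adjusted p = 0.466). Adjusted p-values are from edgeR's quasi-likelihood test with Benjamini-Hochberg adjustment over all 19174 genes tested.

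Il34 (ENSMUSG00000031750), the alternative ligand of CSF1R, lies at chr8:110741829-110805924 on the minus strand and was 20.7 to 51.1 times lower than Csf1 in RPKM. Its level was 2.11, 2.69 and 2.56 CPM in MEF for clones 1, 2 and 3, and 1.84, 2.58 and 1.79 CPM in MEF+B12. In OSKM it was 2.27, 4.24 and 2.86 CPM, and in OSKM+B12 2.28, 4.15 and 2.09 CPM. These rest on 122 to 258 counts per library, and the highest levels were the induced libraries of clone 2. With B12 the log2 fold change was -0.20 ± 0.11 (adjusted p = 0.433), with the B12 library lower in 5 of 6 pairs, and without the OSKM library of clone 1 it was -0.25 (adjusted p = 0.324). Its exons overlap 22 and 75 bases of antisense genes, Gm15894 and Gm15895, which the stranded counting keeps apart.

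Csf1r was the member with the largest difference with B12, and it was higher in every pair. Csf1r (ENSMUSG00000024621), the receptor of both ligands, lies at chr18:61100598-61132149 on the plus strand. In MEF it had 143, 92.5 and 76.2 CPM for clones 1, 2 and 3, and in MEF+B12 219, 162 and 135 CPM. In OSKM it had 106, 71.9 and 75.1 CPM, and in OSKM+B12 137, 133 and 125 CPM. The lowest OSKM+B12 library was above the highest OSKM library, whereas MEF and MEF+B12 overlapped because clone 1 started high. The log2 fold change with B12 was 0.71 ± 0.08 averaged over both states (adjusted p = 0.000773), 0.67 ± 0.12 in OSKM (adjusted p = 0.0237) and 0.75 ± 0.12 in MEF (adjusted p = 0.0130). In bulk RNA, more cells of one type and more RNA per cell cannot be told apart.

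The rise of Csf1r was seen under both title years, and its averaged call was lost when clone 2 was left out. In clones 2 and 3, which share a title year, the averaged log2 fold change was 0.81 (adjusted p = 0.000405). Clone 1, alone in its title year, gave no test of its own, with log2 differences of 0.62 in MEF and 0.37 in OSKM. Without clone 2 the average was 0.64 and no longer passed (adjusted p = 0.0874). Over all genes tested, 34 passed in that fit, against 736 in the main fit. The calls within a state were lost both without clone 2 (0.56 in OSKM, adjusted p = 0.618, and 0.71 in MEF, adjusted p = 0.436) and without clone 3 (0.65, adjusted p = 0.153, and 0.73, adjusted p = 0.0808). Without the OSKM library of clone 1 the average was 0.72 (adjusted p = 0.00217), and that in OSKM was 0.69 (adjusted p = 0.0702). Of the exon bases of Csf1r, 873 overlap exons of Hmgxb3 on the opposite strand.

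Csf2ra rose by less than Csf1r. Csf2ra (ENSMUSG00000059326), the alpha chain that gives the GM-CSF receptor its specificity, lies at chr19:61223957-61228429 on the minus strand. In MEF it had 26.6, 19.7 and 20.7 CPM for clones 1, 2 and 3, and in MEF+B12 28.8, 29.2 and 22.6 CPM. In OSKM it had 22.2, 19.4 and 18.01 CPM, and in OSKM+B12 26.9, 24.3 and 23.4 CPM. The B12 library was higher in 6 of 6 pairs, and OSKM and OSKM+B12 did not overlap, while MEF and MEF+B12 did. The averaged log2 fold change was 0.30 ± 0.06 (adjusted p = 0.0119). It did not pass without clone 2 (0.22, adjusted p = 0.1545) or without clone 3 (0.33, adjusted p = 0.0769). Leaving out the OSKM library of clone 1 gave 0.30 (adjusted p = 0.0223).

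Csf2rb and Csf2rb2 had to be read with their shared sequence in mind. Csf2rb (ENSMUSG00000071713) lies at chr15:78325752-78353847 on the plus strand and Csf2rb2 (ENSMUSG00000071714) at chr15:78282507-78305721 on the minus strand, so the genes are neighbours that point away from each other. Their coding sequences are 2688 and 2634 bases long and were identical at 95.2% of the 2628 aligned bases. Reads were 50 bases long, and 26.0% of the 50-base stretches of the Csf2rb coding sequence also occur in that of Csf2rb2. A read from such a stretch cannot be placed in one gene by its own bases, though its mate may place the pair. The longest identical stretch has 242 bases in exon 14 of both genes, at chr15:78348577-78348818 in Csf2rb and chr15:78284630-78284871 in Csf2rb2, where every single 50-base read fits both. It is shown 5′ to 3′ in coding direction because it is the part of the counts that is least certain:
Csf2rb and Csf2rb2: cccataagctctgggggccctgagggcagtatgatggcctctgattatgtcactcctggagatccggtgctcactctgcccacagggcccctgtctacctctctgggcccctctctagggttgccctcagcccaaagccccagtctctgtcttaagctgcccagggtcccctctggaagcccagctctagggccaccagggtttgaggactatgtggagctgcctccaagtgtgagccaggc

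Other stretches do separate the beta chain genes. The ungapped 60 bases with the most differences lie in exon 4, at chr15:78338893-78338952 in Csf2rb and chr15:78294379-78294438 in Csf2rb2, with 13 differing bases in capitals. They are shown, 5′ to 3′ in coding direction, as the kind of sequence that assigns a read to one gene:
Csf2rb: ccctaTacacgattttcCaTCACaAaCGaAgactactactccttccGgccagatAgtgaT
Csf2rb2: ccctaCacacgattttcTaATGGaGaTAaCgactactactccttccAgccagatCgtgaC

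By exon of Csf2rb, identity ran from 87.9% of 91 bases in exon 11 to 99.0% of 104 bases in exon 13. Exon 14, which holds 1057 of the aligned coding bases, was identical at 97.2%. Over whole transcripts, 18.8% of the 31-base words of Csf2rb occur in Csf2rb2 and 28.6% of those of Csf2rb2 occur in Csf2rb. The other 4 members shared 0 such words with any other member. Each beta chain gene also contains a small microRNA gene on the same strand, with 62 exon bases in common.

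Csf2rb, the common beta chain, rose with B12. It had 14.7, 9.47 and 8.06 CPM in MEF for clones 1, 2 and 3, and 19.5, 11.6 and 10.2 CPM in MEF+B12. It had 11.6, 6.73 and 7.71 CPM in OSKM, and 13.2, 10.7 and 11.1 CPM in OSKM+B12. The groups overlapped because clone 1 was higher than the others in every group, but the B12 library was higher in 6 of 6 pairs. The averaged log2 fold change was 0.40 ± 0.08 (adjusted p = 0.0219). It did not pass without clone 2 (0.37, adjusted p = 0.346) or without clone 3 (0.40, adjusted p = 0.07145). Leaving out the OSKM library of clone 1 gave 0.41 (adjusted p = 0.0406).

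Csf2rb2, the interleukin-3 beta chain, pointed the same way without passing the threshold. It had 8.002, 5.93 and 5.63 CPM in MEF for clones 1, 2 and 3, and 8.19, 7.51 and 7.28 CPM in MEF+B12. It had 4.98, 4.55 and 5.02 CPM in OSKM, and 5.72, 5.84 and 7.70 CPM in OSKM+B12. OSKM+B12 lay above OSKM without overlap, and 6 of 6 pairs were higher with B12. The averaged log2 fold change was 0.32 ± 0.10 (adjusted p = 0.123), which passed with DESeq2 (0.32, adjusted p = 0.0484) and with no filter (0.32, adjusted p = 0.0475). Without the OSKM library of clone 1 it was 0.31 (adjusted p = 0.179). When the counts of Csf2rb and Csf2rb2 were added, which removes any misassignment between them but not pairs lost before counting, the log2 fold change was 0.38 (adjusted p = 0.0236).

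**Figure D3:**
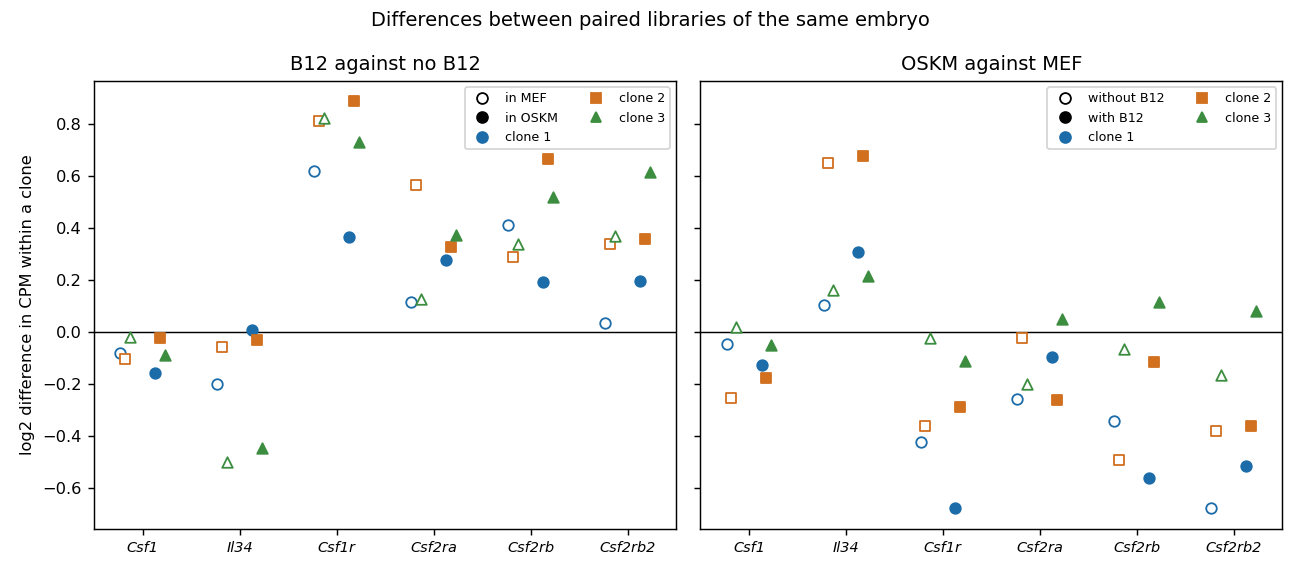
Log2 difference in CPM between 2 libraries of the same clone, for B12 against no B12 (left) and OSKM against MEF (right). Shapes and colours are clones, and open and filled points are MEF and OSKM on the left, and without and with B12 on the right. All 6 points of each receptor gene lie above 0 on the left, and all 6 of Csf1r lie below 0 on the right.

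Over the whole axis, 3 of the 4 receptor genes and 0 of the 2 ligand genes passed the threshold with B12. Averaged over both states, the members that passed were Csf1r, Csf2ra and Csf2rb, all higher with B12, where 3.84% of all genes tested passed in either direction. The median log2 fold change was 0.31 over the 6 members and -0.01 over all genes tested. Csf1r alone passed in OSKM, where 1.06% of all genes passed, and alone in MEF, where 1.38% passed. With edgeR and without the OSKM library of clone 1, 0 members passed in OSKM. In OSKM, DESeq2 called Csf2ra (0.32, adjusted p = 0.0195) and Csf2rb (0.46, adjusted p = 0.0195) as well, in a fit that included that library. The ratio of Csf1 to Csf1r RPKM was 2.94 ± 0.912 in MEF and 1.65 ± 0.431 in MEF+B12, and 3.25 ± 0.683 in OSKM and 1.91 ± 0.191 in OSKM+B12 (mean ± SD, n = 3 each).

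The B12 difference was compared between the states by the interaction, the difference in OSKM minus that in MEF. No member passed, and 0 of all genes did with edgeR (0%, with 273 at an unadjusted p under 0.05) or with DESeq2. The interaction of Csf1r was -0.08 ± 0.16 on the log2 scale, and those of Csf2ra, Csf2rb and Csf2rb2 were 0.06 ± 0.11, 0.11 ± 0.17 and 0.17 ± 0.20. None of the 6 had an unadjusted p under 0.05, and without the OSKM library of clone 1 the 4 receptor genes were between -0.06 and 0.14.

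Induction of the factors moved no member past the threshold. Csf1r was lower in OSKM than in MEF in 6 of 6 pairs, with log2 fold changes of -0.27 ± 0.12 without B12 (adjusted p = 0.244) and -0.35 ± 0.12 with B12 (adjusted p = 0.204). Il34 was higher in 6 of 6 pairs, with 0.31 ± 0.16 (adjusted p = 0.315) and 0.42 ± 0.16 (adjusted p = 0.258). Csf2rb2 had -0.42 ± 0.14 without B12 (adjusted p = 0.180) and -0.25 ± 0.14 with B12 (adjusted p = 0.428). Csf1, Csf2ra and Csf2rb were lower in 5 of 6 pairs each, with log2 fold changes from -0.30 to -0.09. With edgeR 0 members passed in either comparison, where 0.073% of all genes passed without B12 and 0.104% with B12. DESeq2 also called 0. With edgeR, 3 members without B12 and 2 with B12 had an unadjusted p under 0.05, as did 3641 and 2854 of the 19174 genes tested. With the OSKM library of clone 1 left out, the log2 fold changes without B12 were -0.29 for Csf1r, 0.41 for Il34 and -0.39 for Csf2rb2, and 0 members passed.

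The induction differences of Csf1r, Csf2rb and Csf2rb2 were least negative, or positive, in clone 3, the clone with the lowest Pou5f1. The part of factor level in them was not tested. For clones 1, 2 and 3, the log2 differences of Csf1r were -0.42, -0.36 and -0.02 without B12, and -0.68, -0.29 and -0.11 with B12. For Csf2rb2 they were -0.68, -0.38 and -0.17 without B12, and -0.52, -0.36 and 0.08 with B12. For Csf2rb they were -0.34, -0.49 and -0.06 without B12, and -0.56, -0.12 and 0.12 with B12. Without clone 3 the Csf2rb2 difference without B12 was -0.54 and passed (adjusted p = 0.0491). In that fit 1322 genes passed over all genes tested, against 14 with clone 3. The difference between clones in their response to induction itself passed for 0 members, against 2.15% of all genes. Csf1r, Csf2rb and Csf2rb2 had unadjusted p-values of 0.0306, 0.0282 and 0.0312 there (edgeR), with adjusted p-values of 0.264 to 0.278, and DESeq2 called 0 members. Of the 19174 genes tested with edgeR, 2842 had an unadjusted p under 0.05 there. Without the OSKM library of clone 1, Csf1r (adjusted p = 0.0101) and Csf2rb (adjusted p = 0.0215) passed. In that fit 838 genes passed over all genes tested, against 413 with the library.

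The clones differed in their level of 4 members, where 37.8% of all genes tested did. Csf1r averaged 151 ± 48.0 CPM in clone 1, 115 ± 40.6 in clone 2 and 103 ± 31.5 in clone 3 (mean ± SD over 4 libraries of different groups, adjusted p = 0.00296). Csf2rb averaged 14.7, 9.61 and 9.26 CPM (adjusted p = 0.000743) and Csf2ra 26.1, 23.2 and 21.2 CPM (adjusted p = 0.0140), in the same order of clones. Il34 differed in another way, with 2.12, 3.41 and 2.33 CPM (adjusted p = 0.00619), highest in clone 2. Csf1 (adjusted p = 0.188) and Csf2rb2 (adjusted p = 0.489) did not pass. Without clone 1, 0 members passed between clones 2 and 3. The response to B12 did not differ between clones past the threshold for any member, and 0% of all genes passed there with edgeR (227 at an unadjusted p under 0.05, of which 0 were members) or with DESeq2.

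The transcription factors known to act on Csf1r in the macrophage lineage were divided in their response to B12. Of 8 genes, all of them tested, 3 rose, 0 fell and 5 did not pass in the average over both states. The 3 were Spi1, which encodes PU.1, with a log2 fold change of 0.66 ± 0.09 (adjusted p = 0.00171), Irf8, a partner of PU.1, with 0.44 ± 0.08 (adjusted p = 0.00761), and Tfec, a relative of Mitf, with 1.08 ± 0.16 (adjusted p = 0.00255). In MEF, Spi1 had 30.96 ± 7.51 CPM without and 47.7 ± 7.11 with B12 (mean ± SD, n = 3 each). In OSKM it had 25.4 ± 2.45 without and 40.8 ± 3.10 with B12. Cebpb, the most abundant of the 8, had 0.11 ± 0.05 (adjusted p = 0.357), and Runx1 had -0.01 ± 0.06 (adjusted p = 0.960). The median of the list was 0.12, beside -0.01 over all genes tested, of which 3.84% passed.

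The genes that carry the signal from the receptor showed the largest share of calls among the 4 pathway lists. The lists were chosen with earlier results of these data known, so this share depends on which genes were put in them. Of 14 signalling genes, all tested, 9 rose with B12, 0 fell and 5 did not pass, with a list median of 0.51. Over all genes tested, 3.84% passed. Inpp5d, the lipid phosphatase SHIP1, rose by 0.84 ± 0.06 (adjusted p = 7.45e-05), and Vav1, an exchange factor of blood cells, by 0.71 ± 0.07 (adjusted p = 0.000323). Ptpn6, Pik3cg, Pik3cd, Lyn, Plcg2, Syk and Tyrobp rose by 0.50 to 0.62 on the log2 scale. Those 9 genes are known mainly from blood cells. The more widely expressed Grb2 (0.13 ± 0.04, adjusted p = 0.0843), Adam17, Cbl and Gab2 did not pass, with the last 3 between 0.04 and 0.05, nor did the kinase Fgr (-0.15 ± 0.19, adjusted p = 0.755), the least abundant of the list.

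The other cytokines of the beta chain and their JAK2 and STAT5 pathway gave no call with B12. Of 12 genes 8 were tested, and 0 passed with edgeR in the average over both states, with 0 at an unadjusted p under 0.05 and a median of -0.01. Csf2, the ligand of the alpha chain, had at most 2 counts in any library, Il3 had 0 counts in all 12, and Il5 and Il5ra had at most 7 and 3 counts. The interleukin-3 alpha chain Il3ra had 36.6 ± 5.21 CPM over the 12 libraries (SD, groups pooled) and a log2 fold change of 0.05 ± 0.06 with B12 (adjusted p = 0.777). Socs3, the most abundant of the list and a feedback inhibitor of cytokine receptors, had 0.04 ± 0.06 (adjusted p = 0.790), and Jak2 had -0.01 ± 0.07 (adjusted p = 0.968). Jak2 differed between clones in its response to induction (adjusted p = 0.0145, and 0.00440 without the OSKM library of clone 1), with log2 differences of -0.20 in clone 1, -0.53 in clone 2 and 0.00 in clone 3 without B12.

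Related growth factors and receptors, which include other members of the kinase family of CSF1R, gave 0 calls among 9 tested of 10, with a median of -0.11. With edgeR, 2 had an unadjusted p under 0.05, as did 2964 of the 19174 genes tested. Pdgfra and Pdgfrb, the fibroblast members of that family and the most abundant genes of the list, had log2 fold changes of -0.11 ± 0.06 (adjusted p = 0.397) and -0.14 ± 0.05 (adjusted p = 0.207). Kitl had -0.01 ± 0.04 (adjusted p = 0.917), and Sdc1 and Ptprz1, which bind interleukin-34, had -0.10 ± 0.05 and -0.22 ± 0.09. Kit, which blood progenitors use, had a mean log2 CPM of -2.15, and Flt3 had at most 1 count.

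**Figure D4:**
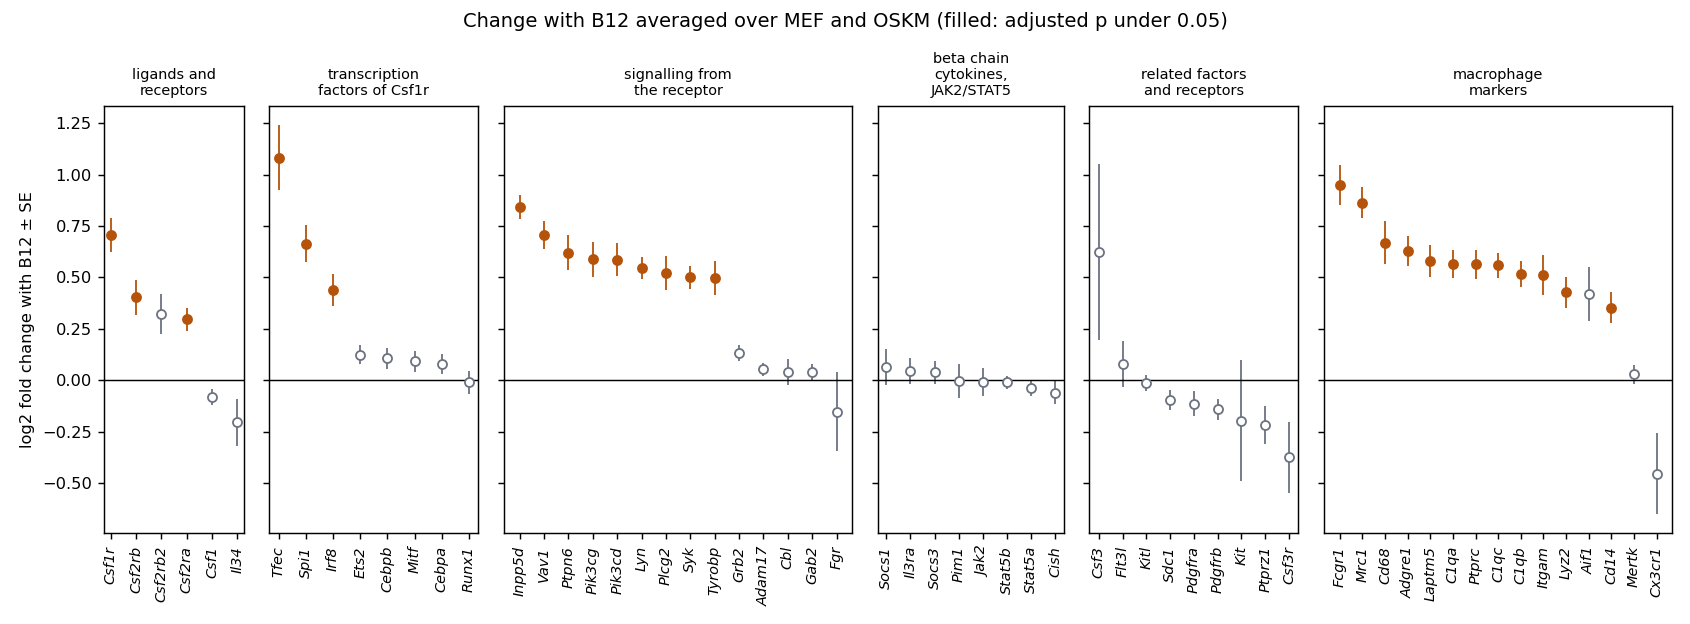
Log2 fold change with B12, averaged over MEF and OSKM, with its standard error, for the tested genes of 6 lists in order of size. Filled points passed the threshold of 0.05 after adjustment over all genes tested. Filled points are 3 of 6 ligand and receptor genes, 3 of 8 transcription factors, 9 of 14 signalling genes, 0 of 8 and 0 of 9 in the next lists, and 12 of 15 macrophage markers.

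Macrophage markers moved together with Csf1r. Of 16 markers 15 were tested, and 12 rose with B12, 0 fell and 3 did not pass, with a median log2 fold change of 0.56. Over all genes tested, 3.84% passed. Fcgr1, a high-affinity antibody receptor, rose by 0.95 ± 0.10 (adjusted p = 0.00044), the mannose receptor Mrc1 by 0.86 ± 0.08 (adjusted p = 0.000206), and Adgre1, which encodes F4/80, by 0.63 ± 0.07 (adjusted p = 0.000778). Aif1 (0.42 ± 0.13, adjusted p = 0.127), Mertk (0.03 ± 0.05, adjusted p = 0.816) and Cx3cr1 (-0.45 ± 0.20, adjusted p = 0.296) did not pass, and Cx3cr1 was lower in 6 of 6 pairs. Cd163 had at most 11 counts. The summed level of the list was 1455 to 2727 CPM in MEF, 2175 to 3555 in MEF+B12, 1478 to 2504 in OSKM and 2269 to 2920 in OSKM+B12, and Lyz2 was its most abundant gene. The fibroblast list summed to 82200 to 133500 CPM, and 0 of its 6 genes passed, with 2 at an unadjusted p under 0.05. The numbers that rose when the OSKM library of clone 1 was left out were again 3 transcription factors, 9 signalling genes and 12 macrophage markers, with 0 in the other pathway lists.

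For each clone, the B12 difference of the mean log2 CPM of the 16 markers was set beside that of each member, averaged over both states. The difference of Csf1r minus that of the markers was 0.14, 0.20 and 0.29 in clones 1, 2 and 3, a mean of 0.21 ± 0.08 (SD, n = 3). For Csf2ra the mean was -0.20 ± 0.04, for Csf2rb -0.09 ± 0.07 and for Csf2rb2 -0.18 ± 0.16. Csf1 and Il34 were at -0.58 and -0.70. An exact sign-flip test over 3 clones cannot go below p = 0.25, so no test of these values could pass, and single markers themselves ranged from -0.45 to 0.95. With clone 1 taken from its MEF pair alone, which leaves out its OSKM library, the means were 0.24 for Csf1r, -0.24 for Csf2ra, -0.07 for Csf2rb and -0.22 for Csf2rb2. Cd163, with at most 11 counts, weighs as much as any other marker in the mean of 16. Without it, clones 1, 2 and 3 were at 0.20, 0.25 and 0.23 for Csf1r and -0.09, -0.16 and -0.29 for Csf2ra. They were at 0.01, -0.13 and -0.11 for Csf2rb and -0.17, -0.25 and -0.05 for Csf2rb2.

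Markers of other blood lineages were at or near 0. The summed level of 7 granulocyte markers was at most 0.189 CPM in any library, that of 5 mast cell markers at most 0.0770 CPM and that of 4 lymphocyte markers at most 0.0588 CPM. S100a9, Fcer1a, Tpsb2 and Cd3e had 0 counts in all 12 libraries. Of 4 dendritic cell markers, Siglech had 0 counts, Xcr1 and Clec9a had at most 2 and 1 counts, and Zbtb46, which endothelium also expresses, carried the summed level of 1.28 to 3.38 CPM.

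The genes with the pattern most like each member over the 12 libraries were found among 11939 named genes with a mean log2 CPM of at least 1. Likeness was the root mean square difference between log2 CPM profiles, each centred on its own mean. It was closest for Csf1r relative to its own spread of 0.473. Nckap1l (0.07), Nrros (0.07), Was (0.07), Adgre1 (0.08) and Tlr7 (0.08) were nearest, and all 5 rose with B12, with log2 fold changes from 0.63 to 0.78. A B12 difference like that of Csf1r follows from choosing genes by their profile over the same 12 libraries, and is no separate result. For Csf2ra, with a spread of 0.220, they were Dgkz (0.06), C2cd2l (0.07), Gmip (0.08), Fes (0.08) and Dnajc12 (0.09).

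The nearest genes of each beta chain gene were found in the same way. For Csf2rb, with a spread of 0.402, they were Rassf4 (0.11), Cd93 (0.12), Rcsd1 (0.13), Dusp6 (0.13) and Itga6 (0.14). For Csf2rb2, with a spread of 0.282, they were Slc16a7 (0.07), Otulinl (0.09), Osbpl8 (0.11), Slc27a1 (0.11) and Prex1 (0.11).

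The nearest genes of the ligands were found likewise. Csf1, whose spread was only 0.0936, was nearest to Wipi1 (0.03), Flot2 (0.03), Ppfia1 (0.03), Yipf5 (0.04) and Calu (0.04), which all had small and uncalled B12 differences between -0.08 and -0.04. Il34, with a spread of 0.378, was nearest to Slc2a6 (0.15), Lgi4 (0.16), Mob3c (0.19), Slc22a18 (0.20) and Avpi1 (0.20). These likenesses are descriptions over libraries that share clones, and carry no test. The B12 differences of the nearest genes follow from how those genes were chosen.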

How the data were processed

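Per the labels and the study's methods, the authors made stranded poly(A) libraries, sequenced both ends of each fragment for 50 bases, used STAR (2.5.2 in the submitters' processing notes) for alignment to mm10 (GRCm38) and featureCounts with the reverse-strand setting for counting. What the authors deposited are unnormalized counts for each gene, added up over flow cells. The labels and the methods differ on the number of flow cells and on the doxycycline concentration, and the labels are followed. How pairs that fit several places were treated is not given in the sources used here.

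From these counts, edgeR 4.0.16 (R 4.3.3) fitted 1 model over the 12 libraries with group and clone as terms (TMM factors 0.934 to 1.06, filterByExpr by group, quasi-likelihood F test, Benjamini-Hochberg threshold 0.05). The clone is a block, since the 4 groups share their embryos. Deviations from the group mean correlated at 0.270 to 0.687 in the 18 same-clone pairs of libraries. The biological coefficient of variation was 8.04%. Log2 CPM used a prior count of 2, and RPKM used exon lengths of GENCODE M21 on GRCm38, which matched 55480 of 55573 identifiers. Coding sequences came from the same release and were aligned with Biopython 1.88. Coordinates are 1-based. Counts carry no molecular identifiers, so depth covers counting error only. Only the fit of the B12 average was run on simulated counts, which held no clone effect. The clone and induction tests were not checked in that way. Alternatives were DESeq2 1.42.0, other scaling and filters, fits to only the libraries compared, no block, leaving out each clone or the OSKM library of clone 1, and the beta chain genes counted together. The list calls without that OSKM library were added after seeing the data.

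The members and gene lists were chosen with earlier results of these data known. Named are the 6 members, list genes that passed in the B12 average (where under 5 passed, also the most abundant ones), and the 5 genes most like each member. The pathway lists and their counts leave out 2 genes, which are not reported here. Other list genes were named after their values were seen.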

Additional observations from a re-analysis of the deposited data

How the results depend on the processing

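Of 396 member values recomputed under the alternatives, 392 kept their direction and 371 their side of the threshold. The 4 others were interactions that had not passed. Without the replicate block for clone, the averaged B12 log2 fold changes of Csf1r, Csf2ra and Csf2rb were 0.68, 0.29 and 0.39, with adjusted p-values of 0.133, 0.336 and 0.859, and 0 members passed in the average, in OSKM or in MEF. All genes called fell from 736 to 90 in the average. Leaving out 1 clone or the OSKM library of clone 1 gave 0.64 to 0.81 for Csf1r, 0.22 to 0.35 for Csf2ra and 0.37 to 0.45 for Csf2rb. Members called then numbered 0 to 3 in the average, 0 to 1 in OSKM, 0 to 1 in MEF, 0 to 1 for induction without B12, 0 to 2 for the clone difference in induction response and 0 to 4 for clone level. Without clone 2, 34 genes passed in the B12 average, without clone 3 317, and 1322 passed for induction without B12 when clone 3 was left out, against 14 with it. With no filter Csf2rb2 passed in the average (0.32), 3 members passed in OSKM, and Csf1r passed for induction with B12 (1 member) and for the clone difference in induction response (1 member). With DESeq2 Csf2rb2 passed in the average (0.32), 3 members passed in OSKM, and 487 and 416 genes passed for induction without and with B12, against 14 and 20. The summed counts of Csf2rb and Csf2rb2 passed with 0.38, which is not a call of Csf2rb2 on its own. With only the libraries compared, 2 members passed in MEF, Csf1r and Csf2rb. Against the C1q genes alone, Csf2ra was at -0.25, and without Cd163, a choice made after seeing the data, the receptor differences from the markers ran from -0.18 to 0.23. Over all genes, the calls for B12 in OSKM and in MEF, 204 and 264, became 388 and 469 with DESeq2, 364 and 425 with no filter and 0 and 0 without the block. The induction calls became 681 and 646 with no filter, and the 413 calls of the clone difference in induction response became 1257 with no filter and 838 without the OSKM library of clone 1. With only the libraries compared, B12 in OSKM and in MEF gave 108 and 845 genes, and induction without and with B12 gave 4 and 6. The causes were not tested. At the depth of Il34, 122 to 258 counts per library, the SE of the averaged B12 difference was 0.11.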

Other observations

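Osteoclasts also depend on CSF1R, and their tested markers were also higher with B12 on average. Of 5 osteoclast genes 4 were tested, and 1 passed in the B12 average, where 3.84% of all genes passed. The median log2 fold change of the 4 was 0.92. With edgeR, all 4 had an unadjusted p under 0.05, as did 2964 of the 19174 genes tested. Dcstamp, which encodes a cell fusion protein, rose by 1.64 ± 0.38 on the log2 scale (edgeR, adjusted p = 0.0397) and was higher with B12 in 6 of 6 pairs. Without the OSKM library of clone 1 it did not pass (1.51 ± 0.38, adjusted p = 0.0604), and 0 of the 4 genes did. Its level was low, in MEF 1.21 ± 0.281 CPM without and 3.18 ± 1.04 CPM with B12 (mean ± SD, n = 3 each). In OSKM it was 0.306 ± 0.374 CPM without and 1.25 ± 1.35 CPM with B12. Ocstamp had 1.28 ± 0.38 (adjusted p = 0.115), Acp5 0.55 ± 0.21 (adjusted p = 0.231) and Ctsk, which fibroblasts also express, 0.13 ± 0.05 (adjusted p = 0.288), while Calcr had at most 13 counts.

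Dcstamp and Acp5 differed between clones in their response to induction (edgeR, adjusted p = 0.00816 and 0.0267, and 0.00726 and 0.00434 without the OSKM library of clone 1). Without B12, the log2 difference of Dcstamp between OSKM and MEF was -3.94 in clone 1, -2.99 in clone 2 and -0.76 in clone 3, and that of Acp5 -1.63, -0.93 and -0.25. The smallest difference of both was in clone 3, the clone with the lowest Pou5f1. The macrophage marker Cx3cr1 had -1.44, -0.74 and -0.01 (adjusted p = 0.00504, and 0.00622 without that library), in the same order of clones. Of the other macrophage markers tested, only Adgre1 passed with every library included (edgeR, adjusted p = 0.0295, and 0.00343 without that library). Its log2 differences were -0.45, -0.36 and 0.02. Cd14, Ptprc, C1qa and C1qb passed as well once that library was left out. Over all genes tested, 2.15% passed in this test with every library, and 838 genes passed without that library.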
